A study of Mus musculus with 74 samples.

Results

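*Afp*, *H19*, *Igf2* and *Gpc3*, genes of the fetal liver, and *Zhx2* and *Zbtb20*, encoding repressors of *Afp*, were followed through a series on the corepressor subunit GPS2 in mouse liver. Members were every RNA-seq row with one of these 6 symbols, of 14583 genes in the count table, and every ChIP-seq peak that the deposited annotation assigned to one of them, 377 of 743949 peaks in 11 tables. A peak is assigned to the gene with the nearest transcription start site (TSS), which need not be the gene that it serves. The question asked of each table was whether the fetal genes or the repressors differed between knockout and wild-type (WT) livers.

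Of the 74 libraries in the series, 64 were ChIP-seq libraries and 8 were RNA-seq libraries, while 2 inputs were not used here. All livers came from C57BL/6 mice of 8 to 12 weeks on a normal chow diet, and the mice were male. In *Gps2* liver knockout (LKO) mice the floxed *Gps2* alleles were deleted in hepatocytes by Cre recombinase driven by the albumin promoter, and their WT controls carried the floxed alleles without Cre. *Ncor* LKO and *Smrt* LKO livers, lacking the 2 large corepressors with which GPS2 forms a complex, were each compared with the WT livers of their own line. *Ppara* KO mice lacked the lipid-sensing nuclear receptor PPARα in the whole body and were compared with *Ppara* WT mice. Nothing in the sources used here states that same-numbered libraries came from one animal. The p-values measure the spread between libraries, and for PPARα in the *Gps2* line only that among LKO libraries.

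In the fetal liver, alpha-fetoprotein (*Afp*), the noncoding RNA *H19* and the growth factor gene *Igf2* are abundant, and they are silenced in the weeks after birth. ZHX2, a zinc fingers and homeoboxes protein, and ZBTB20, a zinc finger protein of the BTB family, take part in that silencing of *Afp*, and variation in *Zhx2* also affects postnatal *H19* and *Gpc3*. *H19* and *Igf2* are imprinted neighbours on mouse chromosome 7, expressed from the maternal and the paternal copy, and share an upstream control region with sites for the insulator protein CTCF. Glypican 3, the product of *Gpc3*, is a cell surface proteoglycan that is also a marker of hepatocellular carcinoma.

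The sequences at which the results turn are shown first. Only 1 H3K4me3 peak was assigned to *H19*, at 2377 bp before its TSS, and it held 2 matches to a core CTCF element. Both lay on the minus strand and are printed on the plus strand of mm9 with 30 bases on either side and the match in capitals, from chr7:149766184-149766257 and chr7:149766639-149766712.
H19 upstream match 1: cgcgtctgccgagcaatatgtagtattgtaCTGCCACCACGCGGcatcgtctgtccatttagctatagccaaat
H19 upstream match 2: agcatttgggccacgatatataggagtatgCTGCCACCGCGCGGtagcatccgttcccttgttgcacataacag
For scale, searched on both strands, the same element occurred in 0.103% of 32851 mouse promoter windows and in 0.0537% of 102413 windows of 200 bases at PPARα peaks, both shorter than the peak of 1051 bases searched here.

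The distal *Afp* peak is shown because it had tags of every factor. It is given on the plus strand of mm9 as the central 200 bases, from chr5:90914727-90914926, and was searched for a nuclear receptor half-site (AGGTCA on either strand).
Afp distal peak: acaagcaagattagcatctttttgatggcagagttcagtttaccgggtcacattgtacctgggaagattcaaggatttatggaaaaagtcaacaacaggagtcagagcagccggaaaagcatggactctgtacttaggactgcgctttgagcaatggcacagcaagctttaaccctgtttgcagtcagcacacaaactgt
The half-site letters were absent from this window, and 31.8% of PPARα windows held them. The *Afp* promoter is shown from RefSeq (GRCm38, plus strand, chr5:90490464-90490713, the 250 bases before the gene's start) because its repression is the reason for following *Zhx2* and *Zbtb20*. Capitals mark an HNF1 half-site (GTTAAT, in 6.43% of promoter windows) and a TATA box (TATAAA, in 12.4%).
Afp promoter: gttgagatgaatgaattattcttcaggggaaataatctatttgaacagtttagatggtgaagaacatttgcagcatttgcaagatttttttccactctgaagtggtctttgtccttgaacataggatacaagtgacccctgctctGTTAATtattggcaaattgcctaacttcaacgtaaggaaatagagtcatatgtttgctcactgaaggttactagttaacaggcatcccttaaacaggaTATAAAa

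RNA-seq compared 4 WT and 4 *Gps2* LKO livers at 13194385 to 20086127 counted reads per library. Values are counts scaled to 1000000 counted reads (CPM), tested with edgeR's quasi-likelihood test with Benjamini-Hochberg adjustment over 12220 genes. *Gps2* itself fell from 16.01 ± 0.719 CPM (SD, n = 4) to 11.2 ± 1.93 CPM (n = 4), a log2 change of -0.53 with an adjusted p of 0.0021, and the groups did not overlap. The hepatocyte gene *Alb* was at 83527 CPM in WT livers. LKO libraries differed more among themselves than WT libraries did, with LKO library 2 the farthest, and members are therefore given library by library. These are whole livers, in which fewer cells of a type and less RNA per cell cannot be told apart.

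Of the 6 members, *H19*, *Afp* and *Gpc3* were higher in LKO livers, *Zhx2* and *Zbtb20* were lower, and *Igf2* had too few reads to test. Across all genes tested, 23.4% were called higher and 21.4% lower, 44.8% in either direction, so that calls as such were common in this comparison. The sizes differed widely, from a 228-fold ratio for *H19* to a 24.8% lower mean for *Zhx2*.

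*H19* (chr7:142575530-142578146, minus strand, GRCm38) was at 0.620, 0.178, 0.175 and 0.191 CPM in the 4 WT livers and at 67.5, 62.8, 65.1 and 69.6 CPM in the 4 LKO livers. Every LKO liver was far above every WT liver, where *H19* had 3 to 10 reads against 845 to 1234. The mean rose from 0.291 ± 0.220 to 66.2 ± 2.96 CPM, a log2 change of 7.80 (SE 0.18, 95% interval 7.42 to 8.18, adjusted p = 6.76e-13), and *H19* ranked 6 by adjusted p among all genes. Without WT library 1, which held 10 of the WT reads, the log2 change was 8.45. The microRNA gene *Mir675*, which lies within *H19*, had 0, 1, 0 and 0 reads in WT and 59, 67, 48 and 30 reads in LKO livers. Its pooled ratio was 194, with a 95% counting interval of 34.4 to 7690, and how the authors' counting divided reads between *Mir675* and *H19* was not given in the sources used here. Its mature products are printed from RefSeq with the seed, bases 2 to 8, in capitals, and their seeds differ.
mmu-miR-675-5p: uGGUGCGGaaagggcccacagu
mmu-miR-675-3p: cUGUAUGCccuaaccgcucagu

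*Afp* (chr5:90490714-90508907, plus strand) was at 0.993, 0.238, 1.22 and 1.02 CPM in WT and at 1.64, 2.03, 1.43 and 2.22 CPM in LKO livers. The lowest LKO liver stood just above the highest WT liver, and WT library 2 was low. The mean rose from 0.868 ± 0.433 to 1.83 ± 0.363 CPM, a log2 change of 1.07 (SE 0.32, interval 0.38 to 1.75, adjusted p = 0.0153). This rests on 4 to 21 reads per WT library and 22 to 40 per LKO library, and *Afp* stayed a rare transcript beside its neighbour *Alb*.

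*Gpc3* (chrX:52272427-52613974, minus strand) was at 1.30, 1.55, 1.11 and 1.78 CPM in WT and at 2.09, 3.10, 2.60 and 3.46 CPM in LKO livers, without overlap. It rose by a log2 change of 0.97 (SE 0.21, interval 0.53 to 1.42, adjusted p = 0.00212). *Igf2* (chr7:142650768-142666816, minus strand) had 1, 2, 2 and 1 reads in WT and 1, 11, 5 and 5 reads in LKO livers, and the groups overlapped. It was removed by the filter on low counts and received no test, while without that filter its log2 change was 1.87 with an adjusted p of 0.0247. The mean was 0.0903 ± 0.0317 CPM in WT and 0.339 ± 0.204 CPM in LKO livers, so the RNA of *Igf2* stayed near the limit of detection where that of its imprinted neighbour *H19* did not.

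*Zhx2* (chr15:57694667-57839832, plus strand) was at 24.01, 26.6, 25.7 and 24.3 CPM in WT and at 19.05, 21.0, 19.5 and 16.2 CPM in LKO livers. All 4 LKO livers were below all WT livers, and *Zhx2* fell by 0.40 on the log2 scale (SE 0.09, adjusted p = 0.00253). *Zbtb20* (chr16:42907645-43619123, plus strand) was at 8.93, 9.45, 7.86 and 9.75 CPM in WT and at 4.85, 5.80, 4.89 and 4.78 CPM in LKO livers. It fell by 0.81 on the log2 scale (SE 0.11, adjusted p = 1.07e-04), its mean being 43.5% lower, with no overlap and with LKO library 2 above the other 3. Reads of 2 neighbours also fell. *Gm19522*, on the minus strand and overlapping the start of *Zbtb20*, fell by 0.72 on the log2 scale. *Mir568*, 21532 bp beyond the end of *Zbtb20* as given here, fell by 1.16.

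**Figure D1:**
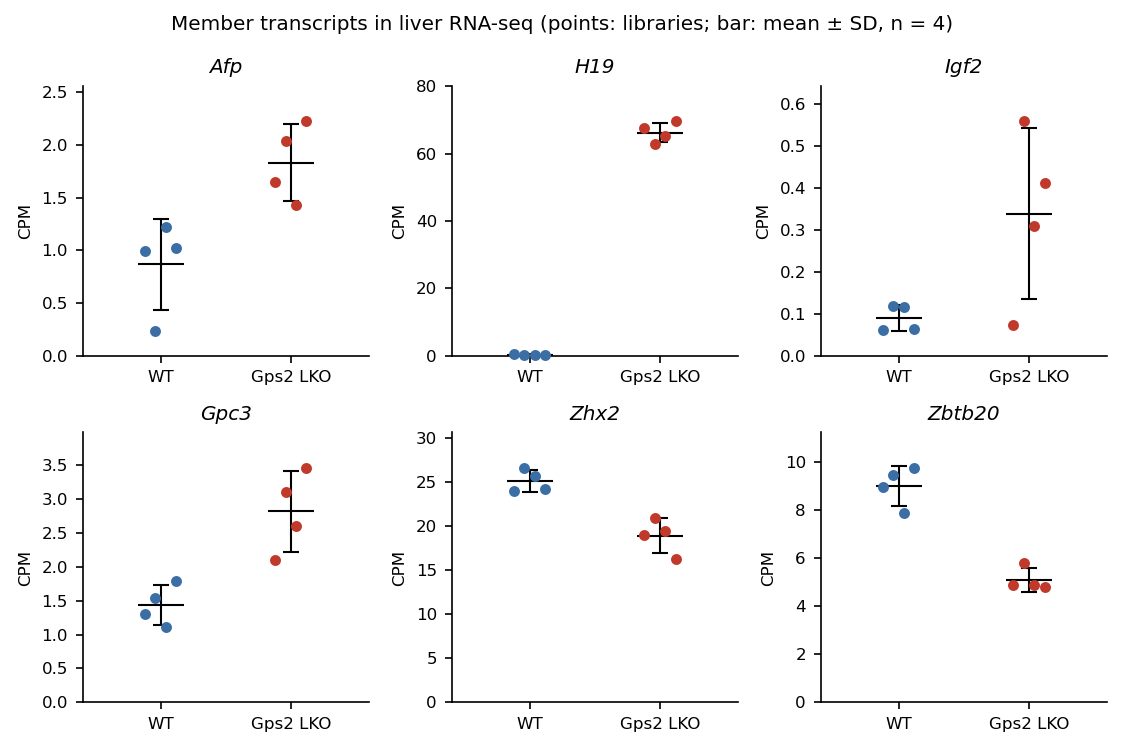
RNA-seq level (CPM) of each member in 4 WT and 4 *Gps2* LKO livers, with points for single libraries and bars for the mean and SD. *H19* went from 0.291 to 66.2 CPM, *Afp* and *Gpc3* sat at 1 to 4 CPM in LKO livers, *Igf2* overlapped between groups, and *Zhx2* and *Zbtb20* were lower in every LKO liver.

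Per exon length, the members can be ranked within a genotype. In CPM divided by exon length in kilobases (RPKM, mean ± SD, n = 4), WT livers had *Zhx2* at 5.75 ± 0.281, *Zbtb20* at 2.70 ± 0.249, *Gpc3* at 0.632 ± 0.130, *Afp* at 0.416 ± 0.207, *H19* at 0.127 ± 0.0960 and *Igf2* at 0.0199 ± 0.0070. LKO livers had *H19* at 28.9 ± 1.29, *Zhx2* at 4.33 ± 0.452, *Zbtb20* at 1.53 ± 0.144, *Gpc3* at 1.24 ± 0.263, *Afp* at 0.878 ± 0.174 and *Igf2* at 0.0749 ± 0.0450. In WT livers the ranges of mean ± SD overlapped between neighbours in this order from *Gpc3* down to *H19*. In LKO livers they overlapped from *Zbtb20* down to *Afp*. Ranges of the other neighbours did not overlap. *H19* moved from the fifth to the first level of the 6, and the order of the other members did not change.

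The fetal members were read against wider lists, each described by its counts beside the 23.4% and 21.4% of all genes and their median log2 change of 0.03. Of 29 fetal or liver progenitor genes, the fetal members among them, 20 were in the table and 16 were tested. Of these 16, 11 rose and 1 fell, with a median of 0.86. *Tff3*, a secreted trefoil factor, rose from 22.9 to 88.5 CPM (log2 change 1.95), *Prom1*, a progenitor surface marker, from 0.957 to 3.16 CPM (1.72) and *Scd2*, a desaturase of perinatal liver, from 5.51 to 12.8 CPM (1.22). *Igf2bp3*, an oncofetal RNA-binding protein, rose by 0.96, whereas its relative *Igf2bp2* fell by 0.89. *Krt19* (1.01), *Epcam* (0.77) and *Pkm* (0.62) rose as well, and the first 2 also mark bile duct cells. Markers of other cell types moved in the same libraries: all 5 tested stellate cell genes, 5 of 6 Kupffer cell genes, 3 of 5 bile duct genes and 4 of 5 cell cycle genes rose. Fewer endothelial genes rose, 2 of 5. Of 3 erythroid genes 2 rose and 1 fell, and of 8 hepatocyte genes 4 rose and 1 fell. Summed stellate marker levels were 125 to 131 CPM in WT and 214 to 232 CPM in LKO livers, Kupffer markers 97.9 to 103 and 134 to 152 CPM, and bile duct markers 65.1 to 69.3 and 91.6 to 112 CPM. Cell cycle genes summed to 5.53 to 7.69 CPM in WT and 12.8 to 13.7 CPM in LKO livers. The part of these cells in the changes of *Afp*, *Gpc3* and *H19* was not tested.

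*H19* is imprinted, and 13 imprinted genes were tested, of which 5 rose, *H19* included, and 1 fell (median 0.21). *Mest* (1.40), *Cdkn1c* (1.01), *Dcn* (0.86) and *Plagl1* (0.70) rose and *Igf2r*, a clearance receptor for IGF2, fell by 0.68. *Dcn* is also made by stellate cells. *Meg3*, the noncoding RNA of another imprinted cluster, was at 1.45 CPM in WT and 2.22 CPM in LKO livers and did not pass (adjusted p = 0.0544).

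Of 23 regulators of *Afp* and their relatives, *Zhx2* and *Zbtb20* among them, 3 rose and 10 fell (median -0.14), and with the trend on transcript length removed 6 rose and 11 fell. *Foxa2*, a pioneer factor, rose from 18.03 to 30.3 CPM (0.75), while *Prox1*, a homeobox factor of hepatoblasts, fell from 84.3 to 43.1 CPM by 0.95. *Zhx3* fell by 0.61, with overlapping groups. Among genes described as responsive to ZHX2 or ZBTB20, 6 of 12 rose and 4 fell, the members *Afp*, *H19* and *Gpc3* making up 3 of the risers. *Cyp2a4* rose from 3.29 to 1199 CPM and *Cyp2b9* from 0.122 to 55.2 CPM, log2 changes of 8.51 and 8.74, and both are cytochromes of female liver. *Cyp2a4* has a near-identical copy, *Cyp2a5*, with which it can share reads. *Cyp3a44*, another cytochrome of female liver, rose by 0.84. *Elovl3* (-2.68), *Cyp4a12a* (-1.90) and *Cyp4a12b* (-1.004), genes of male liver, fell. Of the major urinary protein genes in this list, *Mup3* fell by 0.34 and *Mup20* did not pass (0.05), nor did *Lpl* (0.06).

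All 4 genes of the albumin family, which share a chromosome with *Afp*, rose: *Afp* by 1.07, *Alb* by 0.63, *Afm* by 0.48 and *Gc* by 0.43. Of 4 glypicans tested, *Gpc3*, *Gpc1* (1.09) and *Gpc6* (1.37) rose and *Gpc4* fell by 0.38. Of 13 genes of the insulin-like growth factor system 4 rose and 4 fell, with *H19* listed among them as the neighbour of *Igf2* and counted as a riser. The binding proteins *Igfbp2* (0.65) and *Igfbp3* (0.78) also rose, and *Irs1*, an adaptor of the receptors, fell by 0.67.

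**Figure D2:**
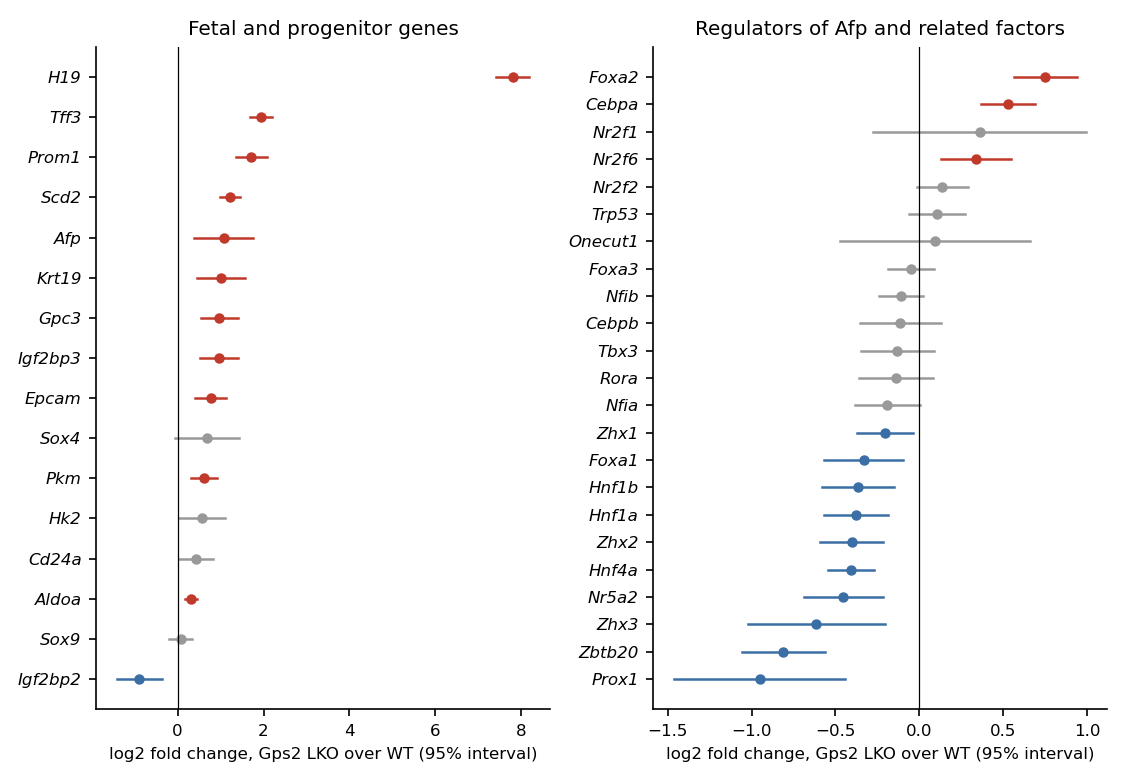
Log2 fold change (*Gps2* LKO over WT, horizontal axis) of each tested gene in the fetal and progenitor list (left) and the list of *Afp* regulators (right), with points for estimates and lines for 95% intervals. Red genes were called higher, blue genes lower and grey genes neither, *H19* standing at 7.80 and *Zbtb20* at -0.81.

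The genes whose levels over the 8 libraries were most like each member's were found among about 10688 expressed genes by Pearson's r of log2 CPM, as a description with no test. For *Afp* these were *Bcl2l12* (r = 0.987), *C920006O11Rik* (0.975) and *Unc45b* (0.969). For *H19* they were *Slc16a5* (0.9996), *G6pdx* (0.997) and *1810008I18Rik* (0.996), and 959 genes had an r above 0.9. *Gpc3* was nearest to *Clstn1* (0.980), *Rfx3* (0.973) and *Klhl13* (0.971). *Zhx2* was nearest to *Ptcd1* (0.994), *Mgrn1* (0.992) and *Zfp790* (0.990), and *Zbtb20* to *Usp45* (0.996), *Lhx6* (0.989) and *P2ry2* (0.986). The 8 points form 2 genotype clusters, so such an r carries the difference between genotypes.

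Histone marks were then compared at the members, as tags scaled to a library of 10000000 total tags (scaled tags), with H3K27ac marking active enhancers and promoters and H3K4me3 marking promoters. In *Gps2* LKO against WT livers, 2 libraries per group, 31 member peaks were tested for H3K27ac and 12 for H3K4me3, and edgeR called none of them. The background was 1.21% higher and 0.212% lower for H3K27ac and 0.798% higher and 0.118% lower for H3K4me3. DESeq2 also called none.

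No peak of any ChIP comparison lay over the *H19* gene body or within 1000 bp of its start. At the H3K4me3 peak with the CTCF elements, WT livers had 54 and 39 tags and LKO livers 65 and 59. The log2 change was 0.19 (interval -0.38 to 0.75, adjusted p = 0.952), beside the 228-fold RNA ratio. For H3K27ac the WT livers had 6 and 1 tags there and LKO livers 2 and 5, too few to resolve a difference.

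Over *Afp*, H3K27ac was strongest at the distal region 5792 bp before the TSS, with 181 and 229 tags in WT and 278 and 225 tags in *Gps2* LKO livers. The groups overlapped when scaled to depth, and the log2 change was 0.26 (interval -0.13 to 0.66, adjusted p = 0.557). The H3K4me3 peak inside *Afp*, 1745 bp after the TSS, had 119 and 78 tags in WT and 93 and 41 in LKO livers, a log2 change of -0.78 with an adjusted p of 0.526. At the *Gpc3* promoter, H3K4me3 was 60.8 ± 5.31 in WT and 68.8 ± 0.925 in LKO livers (n = 2 each), and its log2 change of 0.18 did not pass. The *Igf2* peak 261 bp before a TSS had 65.4 ± 5.81 and 58.2 ± 5.72 scaled tags.

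At the *Zhx2* promoter H3K27ac was 715 ± 56.2 in WT and 675 ± 2.22 in LKO livers, and H3K4me3 1142 ± 84.9 and 1094 ± 39.8. At the inner *Zbtb20* TSS, H3K27ac was 126 ± 33.0 and 144 ± 42.0. No tested peak assigned to either repressor gene was called in these marks, while their RNA fell. The median H3K27ac log2 change was -0.28 over the *Zbtb20* peaks and -0.17 over the *Zhx2* peaks, beside 0.058 over all peaks. Summed per gene, the interval was -0.70 to 0.25 for *Zbtb20* and -0.37 to 0.08 for *Zhx2*. With 2 libraries per group, both intervals held falls as well as rises. Leaving out LKO library 1 called 7 member peaks lower for H3K27ac and 2 for H3K4me3, which leaves a single LKO library.

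**Figure D3:**
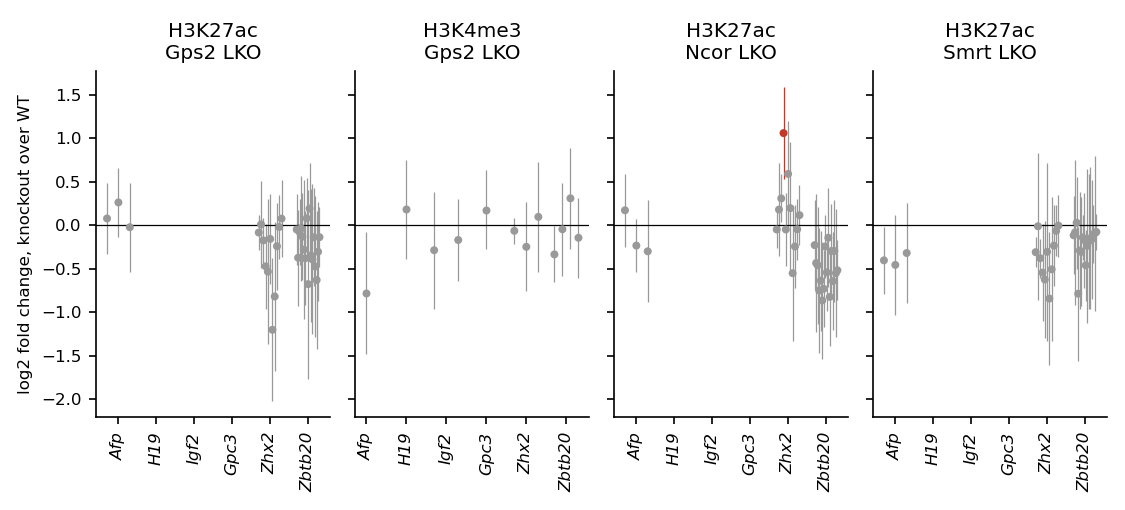
Log2 fold change (knockout over WT, vertical axis) of H3K27ac or H3K4me3 at each tested member peak, grouped by gene, in 4 panels by mark and line, with points for estimates and lines for 95% intervals. The red *Zhx2* intron peak in *Ncor* LKO livers (1.06) was the 1 peak called, and grey peaks were not called.

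*Ncor* LKO and *Smrt* LKO livers, 3 libraries per group, were compared with their own WT livers in 1 shared table with 30 member peaks, none of which was assigned to *H19*, *Igf2* or *Gpc3*. In *Ncor* LKO livers edgeR called 1 of the 30 higher and none lower, and DESeq2 1 higher and 1 lower, against an edgeR background of 2.32% higher and 0.801% lower. The called peak lay in a *Zhx2* intron, 24531 bp after the TSS (mm9, chr15:57550098-57551409), with 79, 64 and 61 tags in WT and 180, 100 and 178 in LKO livers. Each LKO library was above each WT library, at 34.6 ± 8.87 against 16.6 ± 3.81 scaled tags, a log2 change of 1.06 (SE 0.24, adjusted p = 0.0423). Leaving out any library other than LKO library 2 moved its adjusted p to between 0.0566 and 0.168. In *Smrt* LKO livers the same peak had 30.3 ± 8.23 scaled tags in WT and 20.7 ± 4.63 in LKO livers, and the difference between the effects was 1.61 (interval 0.82 to 2.39) with an adjusted p of 0.0762.

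Of 64 H3K27ac peaks over *Zbtb20*, 16 were assigned to it, and only these were followed. All 16 had a lower estimate in *Ncor* LKO livers, and none passed with edgeR. Their median log2 change was -0.53, beside -0.0034 over all peaks. The 16 peaks share the same libraries and are not independent. Summed over them, WT livers had 2221, 2157 and 1475 scaled tags and LKO livers 992, 1367 and 1529. The groups overlapped, and the edgeR log2 change of the sum was -0.59 (adjusted p = 0.139). The lowest adjusted p was 0.0862, at a region 12223 bp before the inner TSS that had 614 ± 151 scaled tags in WT and 370 ± 85.2 in LKO livers, and DESeq2 called this region lower. The *Afp* distal region was at 72.7 ± 1.26 in WT and 61.9 ± 6.14 in *Ncor* LKO livers (log2 change -0.23, adjusted p = 0.482). In *Smrt* LKO livers it was at 48.2 ± 16.98 in WT and 35.2 ± 2.44 in LKO livers (-0.46, adjusted p = 0.839). No member peak was called in *Smrt* LKO livers, where edgeR called 0% of all peaks in either direction and 4079 of 68800 had an unadjusted p below 0.05. DESeq2 called no member peak there either.

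GPS2 binding was measured with 1 library per group in *Gps2* WT and LKO livers, with no replicate check and no test. All 22 member peaks were at least 2-fold lower in the LKO library, as were 99.6% of all peaks, and 0.102% were at least 2-fold higher. Scaled to the tags within peaks instead of all tags, 10 were lower and 7 higher. Tags within peaks were 7.07% of all tags in the WT library and 0.31% in the LKO library. No member peak held more than 2 LKO tags, so those 7 rest on 1 or 2 LKO tags each. None of the 22 was assigned to *H19* or *Gpc3*. The distal *Afp* peak had 22 tags in WT and 0 in LKO, at least 7.00-fold lower with a floor of 3 tags. The *Igf2* peak, inside the gene and 769 bp before an inner TSS, had 29 and 2 tags, a ratio of 13.8 (3.50 to 120, counting error only). The strongest *Zhx2* peak, in an intron 10727 bp after the TSS, had 37 and 0 tags, at least 11.8-fold lower. The *Zbtb20* intron peak at 81139 bp had 25 and 0 tags, at least 7.95-fold lower.

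GPS2 was also measured in *Ncor* LKO and *Ppara* KO livers with 3 libraries per group. edgeR called none of 24 member peaks in *Ncor* LKO livers (background 0% higher and 0.0338% lower) and none of 12 in *Ppara* KO livers (0% higher and 0.273% lower). Of all peaks, 19323 and 6410 had an unadjusted p below 0.05, and the median log2 change over all peaks was -1.12 and -0.93. At the distal *Afp* peak GPS2 had 21, 23 and 11 tags in *Ncor* WT and 21, 7 and 3 in *Ncor* LKO livers, with overlap (log2 change -1.14, adjusted p = 0.186). In the *Ppara* line the same peak had 14 tags in each of 3 WT livers and 6, 5 and 9 in KO livers, without overlap (-0.997, adjusted p = 0.272). Both sizes were close to the median of all peaks in their comparison. Without *Ncor* WT library 3, 13 of the 24 member peaks were called lower, and DESeq2 called 4 lower in *Ncor* LKO and 0 in *Ppara* KO livers. The shares of all peaks called in these fits are not given here, so the counts are not read as particular to the members. *Ncor* WT library 3 had 3.07% of its tags in peaks, against 8.23% and 7.82% in WT libraries 1 and 2.

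NCOR binding was compared in *Gps2* LKO livers, where none of 38 member peaks was called (background 0.0124% higher and 0.00495% lower), and in *Ppara* KO livers, where 2 of 59 were called lower and none higher (background 2.51% lower and 0.136% higher). DESeq2 called none in either. At the distal *Afp* peak NCOR had 46.5 ± 11.4 scaled tags in *Gps2* WT and 42.3 ± 15.96 in *Gps2* LKO livers (n = 3 each), a log2 change of -0.14 (interval -1.01 to 0.74). In the *Ppara* line it had 98.2 ± 15.9 in WT and 108 ± 9.14 in KO livers (0.13, interval -0.23 to 0.49). At the *Igf2* peak NCOR was at 65.6 ± 17.5 and 65.9 ± 28.4 in the *Gps2* line.

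The called NCOR peaks in *Ppara* KO livers were distal to *H19* and in a *Zhx2* intron. At the *H19* peak, 30990 bp before the TSS, WT livers had 6, 12 and 11 tags and KO livers 2, 3 and 2, without overlap. The log2 change was -2.19 (SE 0.67, adjusted p = 0.0446), and leaving out any library other than WT library 1 moved the adjusted p to between 0.0732 and 0.214. The *Zhx2* peak at 57293 bp had 14, 19 and 8 tags in WT and 2, 4 and 2 in KO livers, a log2 change of -2.51 (SE 0.57, adjusted p = 0.00132, and 0.0629 without WT library 2). In *Gps2* LKO livers the *H19* peak had 8, 6 and 4 NCOR tags in WT and 7, 16 and 6 in LKO livers, with overlap and an adjusted p of 1.00.

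**Figure D4:**
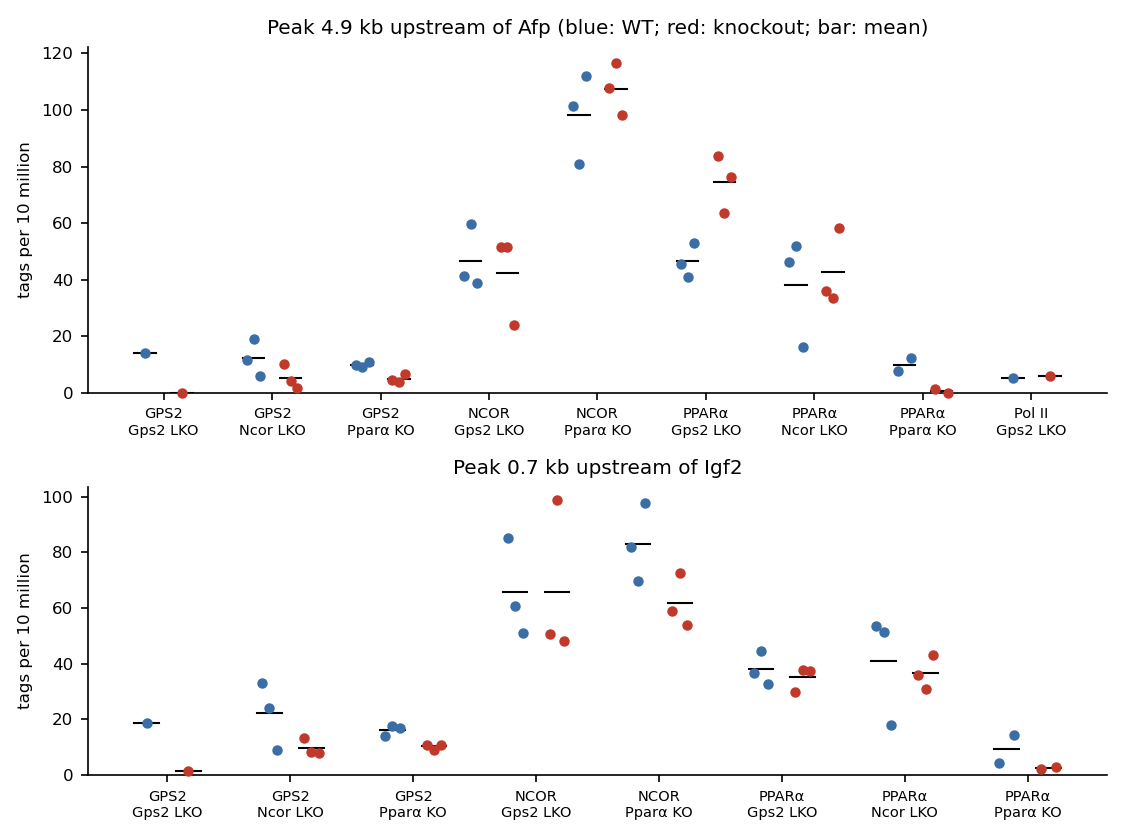
Scaled tags (vertical axis, tags per library of 10000000) at the distal *Afp* peak (top) and the *Igf2* peak (bottom) in each factor comparison, with blue points for WT libraries, red points for knockout libraries and bars for means. The distal *Afp* peak had tags in all 9 comparisons, and GPS2 in the *Gps2* LKO library was at 0 there.

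Peaks recurred across factors. A peak over the distal *Afp* window was present in 9 of 9 factor comparisons, as was one in the *Zhx2* intron 10731 bp after the TSS. The *Igf2* and *Zbtb20* windows were covered in 8 of 9, the *Gpc3* window in 4 of 9 and the *H19* window in 3 of 9.

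PPARα binding was compared in 3 lines. In the *Gps2* line the 3 WT libraries differed from each other by less than the sampling noise and were counted as 1 sample, against 3 LKO libraries. Adjusted p-values of this comparison therefore hold no spread among WT libraries and rest on that among LKO libraries. Of 60 member peaks 8 were called higher and 1 lower, against 21.5% higher and 0.147% lower over all peaks, so that the share called higher was below the background. The median log2 change over all peaks was 0.62. Scaling by TMM, which removes that shift, left 0 of the 8 called, and DESeq2 called 0.

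The distal *Afp* peak had 36, 43 and 47 PPARα tags in WT and 73, 67 and 130 in LKO libraries. Scaled to depth, the summed WT sample was at 46.2 and LKO livers at 74.5 ± 10.3 scaled tags (n = 3), each LKO library above each WT library. The log2 change was 0.69 (SE 0.25, adjusted p = 0.0339), about the median of all peaks, and 0.08 with TMM scaling. Another 3 peaks assigned to *Afp* lay at the end of *Alb*, at 14452, 13772 and 13045 bp before the *Afp* TSS, and were called higher with log2 changes of 1.28, 1.205 and 1.31. The middle one had 12, 28 and 15 tags in WT and 46, 53 and 67 in LKO libraries (adjusted p = 0.00181). With TMM scaling their log2 changes were 0.68, 0.60 and 0.71, and none passed.

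The *H19* peak 30965 bp before the TSS had 9, 14 and 7 PPARα tags in WT and 31, 24 and 46 in LKO libraries. It rose from 11.0 to 28.4 ± 6.57 scaled tags, a log2 change of 1.34 (SE 0.36, adjusted p = 0.00364), which was 0.74 with TMM scaling and did not pass there. It was the only PPARα peak assigned to *H19*. The *Gpc3* peak 8931 bp before the TSS had 0, 3 and 3 tags in WT and 6, 13 and 16 in LKO libraries, a log2 change of 2.09 (adjusted p = 0.0193). The *Igf2* peak 731 bp before an inner TSS was at 38.5 in the summed WT sample and 35.1 ± 4.52 in LKO livers. Its log2 change was -0.11 (interval -0.65 to 0.42).

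Of 105 PPARα peaks over *Zbtb20*, 27 were assigned to it, and 2 of these, in introns, were called higher. The one at 81116 bp had 28, 35 and 37 tags in WT and 55, 69 and 98 in LKO libraries (log2 change 0.75). The one at 56142 bp rose by 0.99. A peak at 39876 bp was called lower: it had 46, 64 and 46 tags in WT and 41, 46 and 39 in LKO libraries, or 57.1 in the summed WT sample and 37.9 ± 13.1 in LKO livers. Its log2 change was -0.67 (adjusted p = 0.0476), and -1.28 with TMM scaling (adjusted p = 2.11e-04). None of the 19 *Zhx2* peaks was called, the strongest of them, at 10731 bp, being at 60.1 in the summed WT sample and 74.9 ± 0.986 in LKO livers. With 1 library left out, 4 to 9 peaks were called higher. The count was 4 in the fit that dropped LKO library 3 and 5 in the one that dropped WT library 1, and the lower call was lost without WT library 1, WT library 2 or LKO library 3.

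**Figure D5:**
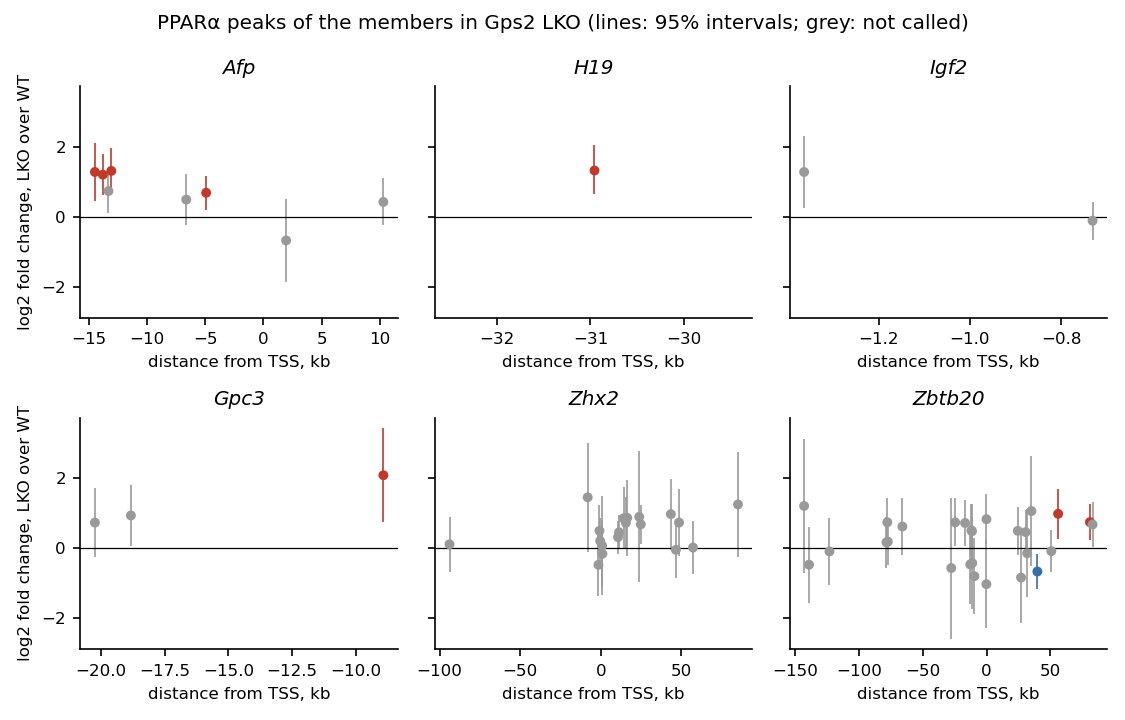
Log2 fold change in PPARα tags (*Gps2* LKO over WT, scaled to total tags, vertical axis) at each tested member peak against its distance from the TSS in kilobases, with lines for 95% intervals. Of 60 peaks, the 8 red ones were called higher and the 1 blue one, in *Zbtb20*, lower, beside a median of 0.62 over all peaks.

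In *Ncor* LKO livers none of 47 member peaks was called for PPARα (background 0.151% higher and 0.0453% lower), and 4506 of all 86168 peaks had an unadjusted p below 0.05. DESeq2 called none. In *Ppara* KO livers, 2 libraries per group, 4 of 23 member peaks were called lower and none higher, against 27.6% lower and 0.0174% higher over all peaks. The distal *Afp* peak had 11 and 16 tags in WT and 2 and 0 in KO livers, a pooled ratio of 13.998 (3.52 to 121, counting error only). The *Zbtb20* peak at 81158 bp had 17 and 17 tags in WT and 5 and 4 in KO livers (log2 change -1.94, adjusted p = 0.00841). In *Zhx2* introns the peak at 10803 bp had 11 and 15 tags against 4 and 3 (-1.91, adjusted p = 0.0284), and the peak at 24892 bp had 12 and 6 against 0 and 2, a pooled ratio of 9.33 (2.23 to 82.9). The *Igf2* peak had 6 and 19 tags in WT and 3 and 4 in KO livers and did not pass (adjusted p = 0.0594). All 4 calls ended with TMM scaling, and they depended on both WT libraries. In simulated data of this comparison's size 43% of 4-fold changes were recovered. Those changes were placed only in features with more tags than these member peaks had, so the share does not describe them.

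RNA polymerase II was measured with 1 library per group, with no replicate check. No Pol II peak lay over *Afp*, *H19*, *Igf2* or *Gpc3*. Of the peaks assigned to *Afp*, the one over the distal window had 6 tags in WT and 7 in LKO, and the other, at the end of *Alb*, had 390 and 384. Of 16 member peaks 3 were at least 2-fold higher and 1 at least 2-fold lower in the LKO library, beside 7.72% and 5.94% of all peaks. The outer *Zbtb20* TSS had 147 tags in WT and 120 in LKO, and the *Zhx2* TSS 63 and 58. The 3 peaks that were higher lay in *Zbtb20* introns, with 11 and 26, 7 and 15, and 7 and 18 tags. The peak that was lower lay in a *Zhx2* intron, with 14 and 7 tags, and each rests on few tags in 1 library.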

How the data were processed

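The authors deposited RNA-seq counts per gene (exon coordinates on GRCm38) and ChIP-seq tag counts per annotated peak (mm9). The submitters' processing notes name HISAT2, featureCounts, Bowtie2, SAMtools and HOMER, with builds mm9, mm10 and GRCm38. Columns of the authors' own fold changes and p-values were not used. Counts were tested with edgeR 4.0.16 in R 4.3.3 (glmQLFit, glmQLFTest, Benjamini-Hochberg over all features, threshold 0.05). RNA-seq used TMM scaling and filterByExpr, and ChIP-seq was scaled to the total tags in the headers. Histone marks of the *Gps2* line were tested at peaks that overlapped a peak of that mark in at least 2 libraries. DESeq2 1.42.0 was an alternative. Depth was 7901613 to 46106612 tags per tested ChIP library, and intervals and floors cover counting error only.

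Each test was checked on simulated data with 200 features changed 4-fold. The changed features were drawn above a minimum expected count, with a fixed spread between libraries. The shares recovered therefore do not describe members with few reads or tags. edgeR recovered 100% for RNA-seq, 43% for PPARα in *Ppara* KO, 78.5% for PPARα in *Gps2* LKO, and 90.5% to 98% elsewhere.

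Members and lists were chosen with earlier results of these data known. Named were the members, the targeted genes, list genes past the threshold and 1.5-fold, the albumin family, the 3 genes most like each member (prior count 2), and for each member and table the peak within 1000 bp of the TSS, the peak with most tags and called peaks. A few other genes and peaks, including marginal ones, were chosen after their values were seen. RefSeq promoters were matched for 4 of 6 members. Same-numbered libraries were not taken as pairs.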

Additional observations from a re-analysis of the deposited data

Results flagged for a closer look

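In the RNA-seq data 2 libraries stood apart from the others of their group at a member. WT library 1 had *H19* at 0.620 CPM against 0.175 to 0.191 CPM in the other WT livers, and its gap to the nearest was 0.963 of the group's range. LKO library 2 had *Zbtb20* at 5.80 CPM against 4.78 to 4.89 CPM in the other LKO livers, a gap of 0.884 of the range. Chance places about 1 in 20 groups of 4 beyond this limit, and both genes kept their calls without these libraries.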

How the results depend on the processing

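All 5 RNA-seq calls on members kept their direction and side of the threshold under the alternatives run (another scaling, no filter, length trend removed, DESeq2, replicate block, each library left out). The log2 change of *H19* was 7.62 to 8.45 with 1 library left out. Without the filter *Igf2* had a log2 change of 1.87 (adjusted p = 0.0247). Peak counts moved more. Except for tags summed per gene, the shares of all peaks called under the alternatives here and below are not given, so these counts are not read as particular to the members. Restricting to 20000 bp of a TSS gave 0 higher for H3K27ac in *Ncor* LKO, 0 lower for NCOR in *Ppara* KO, 5 higher and 0 lower for PPARα in *Gps2* LKO, 2 lower for PPARα in *Ppara* KO and 14 lower for GPS2 in *Gps2* LKO. TMM scaling gave 1 higher for GPS2 in *Ncor* LKO, 1 lower for NCOR in *Ppara* KO, 0 higher for PPARα in *Gps2* LKO and 0 lower for PPARα in *Ppara* KO. DESeq2 gave 1 lower for H3K27ac in *Ncor* LKO, 4 lower for GPS2 in *Ncor* LKO, 0 lower for NCOR in *Ppara* KO, 0 higher and 0 lower for PPARα in *Gps2* LKO and 2 lower for PPARα in *Ppara* KO. Tags summed per gene count genes in place of peaks. They gave 0 higher for H3K27ac in *Ncor* LKO, 1 lower for NCOR in *Ppara* KO, and 4 higher and 0 lower of 6 for PPARα in *Gps2* LKO. Over all genes these shares were 2% higher, 5.83% lower, and 58.1% higher and 0.198% lower. filterByExpr gave 0 lower for NCOR in *Ppara* KO. Scaling the GPS2 libraries of the *Gps2* line to tags in peaks gave 7 higher and 10 lower of the 22 peaks. Those 7, lower on total tags, held 1 or 2 LKO tags each. Tags in peaks were 7.07% of the WT and 0.31% of the LKO library. A 1.5-fold limit for Pol II gave 5 higher. The causes were not tested.

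With the replicate block, counts became 2 lower for H3K4me3 in *Gps2* LKO, 0 higher for H3K27ac in *Ncor* LKO, 4 lower for GPS2 in *Ncor* LKO, 1 lower for NCOR in *Ppara* KO and 0 lower for PPARα in *Ppara* KO. Keeping the PPARα libraries of the *Gps2* line apart gave 17 higher, and 17 with the block as well, the latter chosen after seeing the data, as was the fit of the difference between *Ncor* and *Smrt* effects. The block changed no other count of calls beyond 1.5 times. Same-numbered RNA-seq libraries had correlated deviations of 0.0209 to 0.113 (Pearson's r), so their numbers were not read as pairs. In the *Gps2* line the correlation was 0.178 for H3K27ac and 0.244 for H3K4me3, each over 2 pairs, too few to read as pairs, and every other comparison had a pair at or below 0.1.

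Leaving out 1 library at a time gave 0 to 7 lower for H3K27ac and 0 to 2 lower for H3K4me3 in *Gps2* LKO, 0 to 1 higher and 0 to 1 lower for H3K27ac in *Ncor* LKO, 0 to 13 lower for GPS2 in *Ncor* LKO, and 0 to 2 lower for NCOR in *Ppara* KO. For PPARα it gave 4 to 9 higher and 0 to 1 lower in *Gps2* LKO, 0 to 1 lower in *Ncor* LKO and 0 to 4 lower in *Ppara* KO. Where 1 library remained in a group it was assumed to vary like the other group. Low tag counts limit most factor peaks, and few reads limit *Igf2* and *Afp*.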

Other observations

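The genes beside the members moved in different directions. Within 250000 bp of *H19*, the tested genes outside it were *Ctsd*, a lysosomal protease gene, and *Lsp1*, a leukocyte protein gene. *Ctsd* rose from 284 to 424 CPM (log2 change 0.58) and *Lsp1* from 1.23 to 2.96 CPM (1.25), where 23.4% of all genes were called higher. *Mir675* also rose but lies within *H19* and is not a separate neighbour. *Mrpl23*, another gene there, had too few reads to test. Around *Afp*, *Alb* (0.63), *Afm* (0.48) and *Rassf6* (0.30) rose and *Ankrd17* fell by 0.71, of 6 tested. Around *Zhx2*, *Fam83a* rose by 1.42 from 0.424 CPM and *Zhx1*, its relative, fell by 0.20 with overlapping groups. These neighbours are named by position, after their values were seen.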
